A study of Macaca mulatta with 136 samples.

Results

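The neural retina of the fovea was compared with that of the periphery in rhesus macaques, using 4 fovea and 4 periphery libraries. These are 8 of the 32 libraries of the series and were sequenced in 28 of its 136 lanes. They were chosen by tissue and location alone: neural retina from a 2 mm punch at either location of the right and left eye of 2 animals, named RM03 and RM04 in the labels. The animals were adults of 13 and 18 years, and the study states no treatment. The retina was peeled from the pigment epithelium and choroid, which were sequenced apart. Each punch held all retinal layers, so a value is an average over every cell type in it, and fewer cells of a type cannot be told apart from less RNA per cell. Perimacula and nasal punches of the same retinas, 4 libraries each, served for comparison. The study describes its peripheral region as temporal, so the nasal punch comes from the other side of the retina. Values from nasal retina thus mix the side of the retina with the distance from the fovea. Eyes 1 and 2 are the right and left eye of RM03, and eyes 3 and 4 those of RM04. Values listed below follow that order.

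The fovea is the centre of the primate retina, where cones are packed most densely and the inner layers are pushed aside to form a pit. Around the pit, bipolar and ganglion cells are piled several cells deep, since nearly every foveal cone has its own line to the brain. Rods are rare at the centre and make up most photoreceptors elsewhere. Mueller glia span the thickness of the retina at all locations, where they recycle glutamate and handle water and ions. Retinoic acid, Wnt, BMP and FGF signals shape these regions during development, and cells of the adult retina still make several of their components.

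Summed over lanes, the fovea libraries held 48224424 to 58821255 estimated counts and the periphery libraries 68510820 to 78574034. Fovea, perimacula and nasal libraries ran on 5 lanes of 2 flow cells, and periphery libraries on 2 lanes of another, so that location and flow cell cannot be told apart in the comparison with the periphery. The comparison of fovea with nasal retina was made within shared flow cells, and its values stand beside results below. Both comparisons use the same fovea libraries. Counts of the right and left eye of an animal differed beyond counting error at every location, so each eye was kept as a replicate, but with only 2 animals the p-values describe these 4 eyes.

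Levels are in CPM, the counts of a gene relative to the total of its library after TMM scaling. Differences are log2 fold changes of fovea minus periphery with their standard error, and a gene was called at a Benjamini-Hochberg adjusted p under 0.05 in edgeR's quasi-likelihood test. Of 15380 genes tested, 10312 (67%) were called, of which 4770 (31% of those tested) were higher in the fovea and 5542 (36%) lower. The 4 fovea and 4 periphery values did not overlap for 8183 genes (53.2%). A called difference over 1 on the log2 scale was found for 2065 genes (13.4%) higher and 2164 (14.1%) lower in the fovea. From the perimacula, 5416 genes (35.2%) were called different, 2928 (19%) of them higher in the fovea and 2488 (16.2%) lower, and from nasal retina 8091 of 15486 (52.2%), 3886 (25.1%) higher and 4205 (27.2%) lower. The perimacula mean lay between the fovea and the periphery for 1989 of those 2065 genes and for 1990 of the 2164. With perimacula and then nasal retina in order between them, the counts were 1617 and 1514. These genes were picked for a wide gap between fovea and periphery, which makes a value in between likely. The counts are therefore a description only. With such a background, the call of a single gene says little, and the size of the differences carries more. The counts of each list below are to be read beside the shares of 31% and 36% over all genes tested.

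**Figure D1:**
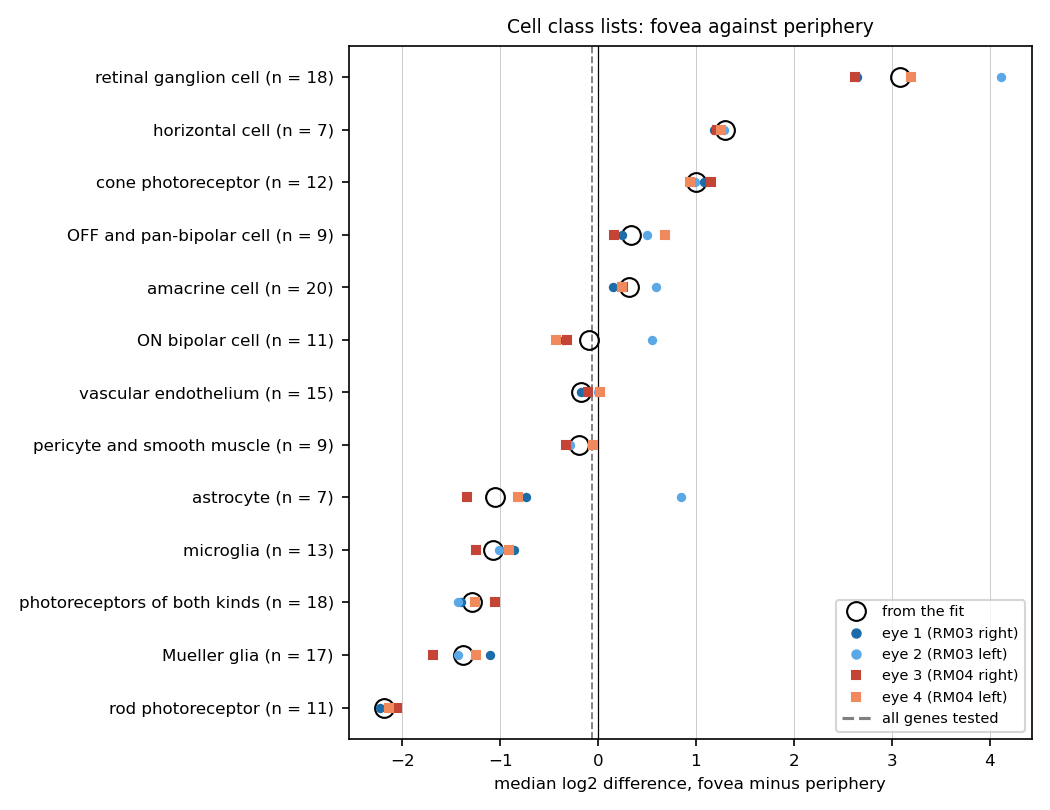
Median log2 difference between fovea and periphery over the tested members of each cell class list (large circles, from the fit) and the same median in each of the 4 eyes (small points). The number of tested members stands beside each name. The dashed line is the median of all genes tested, at -0.056. Ganglion cell, horizontal cell and cone lists lie to the right of 0, and the lists of rods, Mueller glia and microglia to the left.

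Rod genes were lower in the fovea without exception among those analysed. Of 17 listed genes, 11 were tested and all 11 were called lower, with a median difference of -2.19 against -0.056 for all genes. The other 6 were not analysed here. SAG, the arrestin that quenches the rod photopigment, was at 1293, 1527, 1494 and 1639.7 CPM in the 4 foveas and at 11222, 11805, 12389.6 and 12050.4 CPM in the peripheries. The groups were far apart, with a log2 difference of -2.99 ± 0.13. GNGT1, a subunit of the rod G protein transducin, was at 376, 368, 281 and 296 CPM in the fovea and 2861, 3556, 2158 and 2056 CPM in the periphery (-2.98 ± 0.12). The difference was smaller for NRL, the transcription factor that commits a photoreceptor to the rod fate, at 321, 441, 372 and 369 CPM against 1505, 1375, 1583 and 1850.3 CPM (-2.06 ± 0.17). NR2E3, which acts with NRL to silence cone genes, was at 44.6, 97.2, 94.4 and 100.0 CPM against 406, 429.9, 391 and 589 CPM (-2.44 ± 0.33), and the fovea of eye 1 was the lowest of all. The phosphodiesterase subunit PDE6A (-1.97 ± 0.12), the channel subunits CNGA1 (-2.19 ± 0.12) and CNGB1 (-2.20 ± 0.14) and the exchanger SLC24A1 (-1.68 ± 0.10) were lower in every eye. The medians over the list ran from -2.23 to -2.05 in the 4 eyes, and the median difference from nasal retina was -1.86. SAG stood at 4901 ± 1085 CPM in the perimacula and 5922 ± 1004 CPM in nasal retina (SD, n = 4).

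Cone genes were higher in the fovea, by less. Of 16 listed genes, 12 were tested, 10 were called higher and none lower, with a median of 1.0. The 4 others were not analysed here. The largest difference was that of SLC24A2, an exchanger that removes calcium from the cone outer segment and is also made by other neurons, at 203, 182, 195 and 188 CPM in the fovea and 37.7, 37.3, 40.3 and 37.1 CPM in the periphery (2.34 ± 0.16). RXRG, a nuclear receptor of cones that is also made by ganglion cells, was at 189, 179, 174 and 172 CPM against 52.1, 37.7, 60.6 and 46 CPM (1.88 ± 0.16). The cone channel subunit CNGA3 was at 56, 60.1, 72 and 65.7 CPM against 23.3, 20.8, 21.6 and 22.5 CPM (1.52 ± 0.10). In all 3 genes the lowest fovea lay more than 2 times above the highest periphery. PDE6C, the cone phosphodiesterase, was at 207, 199, 147 and 149 CPM against 88.3, 83.5, 59.4 and 65 CPM (1.25 ± 0.12). GNAT2, the cone transducin, was at 226, 221, 245 and 222 CPM against 121, 121, 135 and 124 CPM (0.87 ± 0.13). Cone arrestin, ARR3, was an exception: its 4 foveas were at 900.3, 954, 865 and 759 CPM and its 4 peripheries at 1011, 917, 867 and 815 CPM, which overlap (difference -0.049 ± 0.092, adjusted p = 0.657). Against nasal retina, at 606 ± 72.3 CPM, ARR3 was higher in the fovea by 0.52 on the log2 scale (adjusted p = 5.18e-04). THRB, the thyroid hormone receptor that directs the choice of cone type, was not called either (0.15 ± 0.084, adjusted p = 0.141). The same 10 of 12 counts and a median of 0.74 were found against nasal retina, where the 10 include ARR3 and leave out GUCA1C. THRB passed without eye 2 (0.24, adjusted p = 0.0264).

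Genes that rods and cones share went the way of the rods. All 18 tested members were called lower in the fovea, with a median of -1.29. The range was wide: GUCY2F, a guanylate cyclase that restores the transmitter of the light response, was at 40.5, 42.8, 35.7 and 37.4 CPM against 199.9, 239, 143 and 161 CPM (-2.22 ± 0.11), while CRX, the transcription factor of both photoreceptors, was at 87.4, 102, 65.1 and 76.3 CPM against 112, 123, 114 and 114 CPM (-0.51 ± 0.15). GUCA1B, an activator of the cyclase, differed by -0.60 ± 0.10 and IMPG2, a protein of the matrix around the outer segments, by -0.50 ± 0.096. Summed over the list, the level was 8381 to 9247 CPM in the foveas and 18139 to 21679.9 CPM in the peripheries. CRX lost its call without eye 3 (-0.41, adjusted p = 0.0981).

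**Figure D2:**
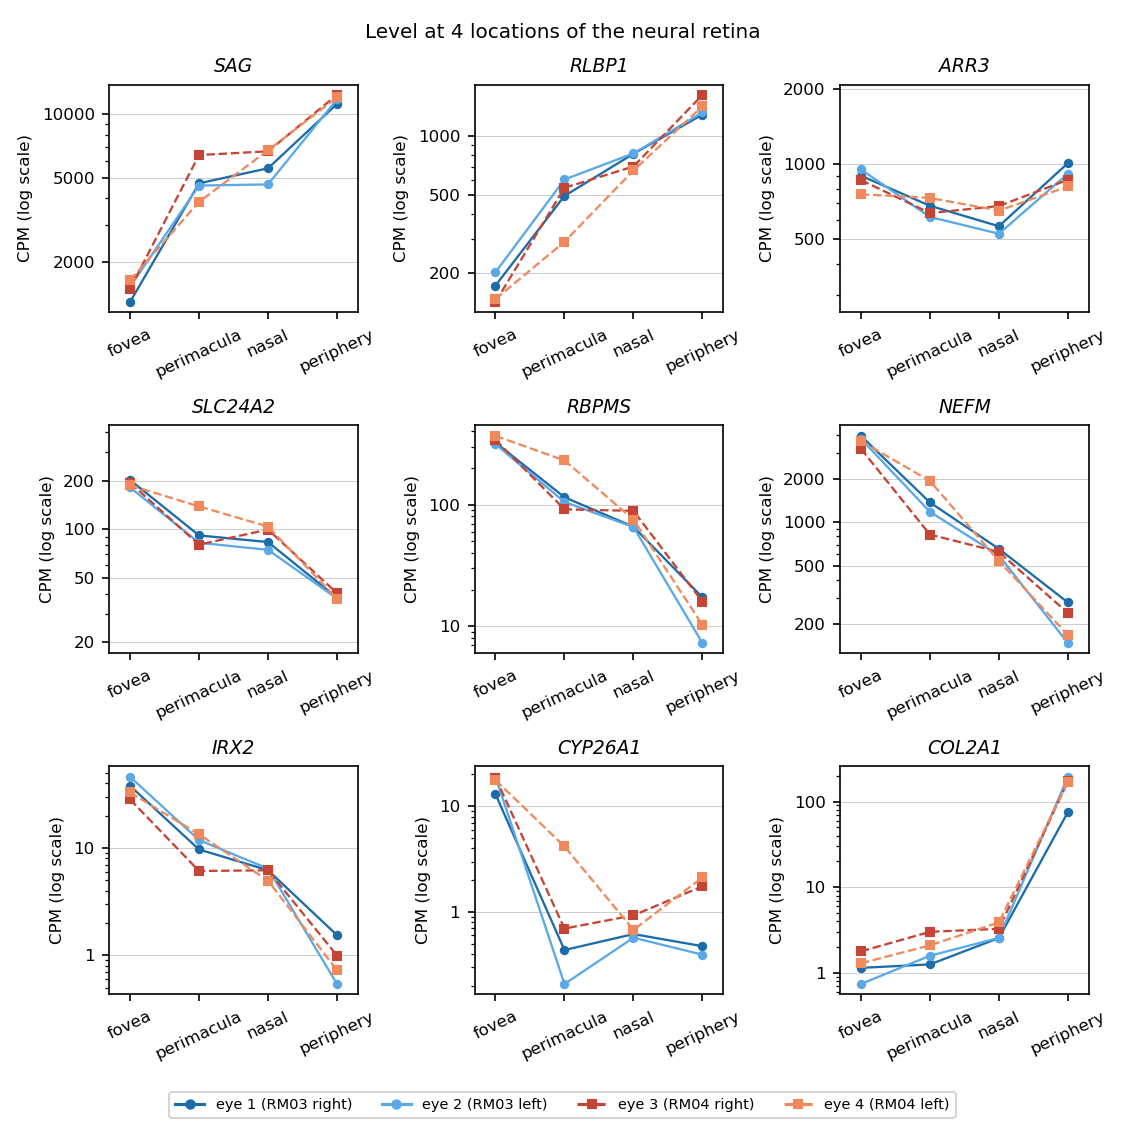
Level of 9 genes in CPM (log axis) at the 4 locations of the neural retina, with a line for each of the 4 eyes (solid for RM03, dashed for RM04). The order is fovea, perimacula, nasal and periphery, which is not a single path, since the nasal punch lies on the other side of the retina. SAG and RLBP1 climb from left to right, and RBPMS and NEFM descend. SLC24A2 and IRX2 descend too, except for a rise from perimacula to nasal retina in eye 3. ARR3 is at about the same level at both ends, CYP26A1 is high in the fovea alone and COL2A1 in the periphery alone.

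Ganglion cell genes showed the largest differences of the cell class lists. Of 20 listed genes, 18 were tested, 14 were called higher in the fovea, 2 lower and 2 were not called, with a median of 3.08. RBPMS, an RNA-binding protein used to label ganglion cells, was at 324, 314, 341 and 368 CPM in the fovea and 17.3, 7.31, 16 and 10.3 CPM in the periphery, a 26.6-fold difference (log2 4.73 ± 0.34). SLC17A6, the transporter that loads glutamate into the vesicles of ganglion cells, was at 431, 376, 394 and 405 CPM against 33, 13.5, 28.1 and 22.9 CPM (4.06 ± 0.32). POU4F2, a transcription factor of ganglion cell differentiation, was at 93.6, 87.3, 96 and 98.8 CPM against 6.31, 2.16, 4.44 and 3.72 CPM (4.50 ± 0.37). In all 3 the periphery of eye 2 was lowest and that of eye 1 highest, while the foveas lay close together. POU4F1 (3.53 ± 0.38), EBF1 (3.90 ± 0.30), EBF2 (4.65 ± 0.32) and EBF3 (4.17 ± 0.27) are further transcription factors of these cells and were higher in every fovea. The most extreme was TBR1, a T-box factor of ganglion cell subtypes, at 18.8, 19.7, 23.2 and 23.7 CPM in the fovea and 0.629, 0.102, 0.491 and 0.364 CPM in the periphery (5.74 ± 0.44). The level of RBPMS at the perimacula (136 ± 64.2 CPM, SD, n = 4) and in nasal retina (74 ± 11 CPM) lay between, and the list median against nasal retina was 1.84.

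A few genes of the ganglion cell list did not follow. SPP1, osteopontin, a secreted matrix protein that also marks large ganglion cells, was at 107, 93, 102 and 102 CPM in the fovea and 941, 1159, 1439.8 and 1160.1 CPM in the periphery (-3.53 ± 0.17), the reverse of RBPMS. CHRNA3, a nicotinic acetylcholine receptor subunit, was at 48.5, 37.6, 28.3 and 32.6 CPM against 193, 192, 138 and 130.0 CPM (-2.14 ± 0.18), whereas its partner subunit CHRNB2 was higher in the fovea (1.55 ± 0.13). OPN4, the melanopsin of light-sensitive ganglion cells, was at 2.78, 1.94, 5.31 and 6.15 CPM in the fovea and 2.78, 1.31, 3.76 and 2.68 CPM in the periphery, which overlap (0.52 ± 0.25, adjusted p = 0.0805). OPN4 was higher in the perimacula (7.48 ± 4.04 CPM) and in nasal retina (7.84 ± 2.96 CPM). It was called lower in the fovea than in nasal retina (-1.0, adjusted p = 0.00133). ISL2, a LIM homeodomain factor of some ganglion cells, did not pass the test (0.085 ± 0.23). Without eye 1, OPN4 was called higher in the fovea than in the periphery (0.78, adjusted p = 0.00627).

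The parts of the axon followed the ganglion cell genes. Of 14 axon cytoskeleton genes, 13 were called higher in the fovea and none lower, with a median of 2.85. The neurofilament subunit NEFM was at 3955, 3771, 3221 and 3641 CPM in the fovea and 279.7, 147, 236 and 167 CPM in the periphery (4.15 ± 0.28), and the light subunit NEFL at 3082, 3295, 2701 and 2814 CPM against 241, 114, 182 and 151 CPM (4.12 ± 0.27). As for the ganglion cell genes, the periphery of eye 2 was the lowest library. PRPH, peripherin, an intermediate filament of long axons (4.10 ± 0.22), the motor protein KIF5A (3.60 ± 0.22) and STMN2 (3.18 ± 0.27) differed by similar amounts, and DPYSL3, a growth cone protein, did not pass the test (0.056 ± 0.086, adjusted p = 0.588). Taken as a sum, the 14 genes came to 20401 to 23576 CPM in the foveas and 3520.4 to 4704 CPM in the peripheries.

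Voltage-gated channels moved with them. Of 28 listed sodium, potassium and HCN channel genes, 24 were tested, 20 were called higher in the fovea and 3 lower, with a median of 1.96. Against nasal retina 15 were called higher and 4 lower, with a median of 0.82. KCNC2, a fast potassium channel that lets neurons fire at high rates, was at 1093, 891, 966 and 947 CPM against 48.5, 25.4, 48.4 and 33.4 CPM (4.66 ± 0.33). The silent potassium subunit KCNV1 (4.02 ± 0.29) and the sodium channels SCN1A (2.95 ± 0.22) and SCN8A (2.84 ± 0.20) were also far higher at the centre. Among the 3 genes called lower were KCNV2 (-0.60 ± 0.14), a potassium channel subunit of photoreceptors, and SCN3B (-0.44 ± 0.16). SCN3B lost its call without eye 1, 3 or 4 (-0.24, adjusted p = 0.23 without eye 3).

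The interneuron lists differed by less than the ganglion cell list, and they did not share a direction. All 7 tested horizontal cell genes were called, 6 of them higher in the fovea, with a median of 1.30. ONECUT1, a transcription factor of horizontal cells, was at 15.5, 15.9, 27.6 and 20.2 CPM in the fovea and 4.03, 1.90, 5.65 and 8.46 CPM in the periphery (2.04 ± 0.31). LHX1, which sets their position, was at 2.52, 2.78, 3.42 and 3.22 CPM against 0.693, 0.657, 1.09 and 1.31 CPM (1.70 ± 0.21), and the calcium buffer CALB1 at 596, 655, 514 and 489.9 CPM against 262, 269, 195 and 199 CPM (1.30 ± 0.094). GJA10, a gap junction protein that couples horizontal cells, was called in the other direction (-0.46 ± 0.19, adjusted p = 0.0495). Against nasal retina the median was only 0.21, and neither ONECUT1 (0.38, adjusted p = 0.266) nor LHX1 (0.21, adjusted p = 0.42) passed the test. The step from nasal retina to periphery is also the step between flow cells and between the nasal and the temporal side. The call of GJA10 was lost without eye 1 (-0.55, adjusted p = 0.0662), eye 3 (-0.28, adjusted p = 0.298) or eye 4 (-0.33, adjusted p = 0.251), and with the eye as a block (adjusted p = 0.0757). PROX1, a transcription factor of horizontal cells and other interneurons, was near the threshold (0.24 ± 0.098, adjusted p = 0.0489), and lost its call in 12 of 19 alternatives, among them those without eye 1 (0.19, adjusted p = 0.193), eye 2 (0.21, adjusted p = 0.155) or eye 4 (0.23, adjusted p = 0.149) and that with the eye as a block (adjusted p = 0.08). In those 12 the count of horizontal cell genes called higher was 5.

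Of 11 ON bipolar cell genes, 2 were called higher in the fovea, 3 lower and 6 were not called, with a median of -0.097. PRKCA, the protein kinase C of rod bipolar cells, was lower (23.5 ± 4.99 against 50.4 ± 4.96 CPM, SD, n = 4, log2 -1.11 ± 0.091), as was TRPM1, the channel that opens in ON bipolar cells at light onset (-0.42 ± 0.085). The receptor GRM6 that controls TRPM1 did not pass the test (-0.28 ± 0.16, adjusted p = 0.153). The third gene called lower was LRIT3 (-0.32 ± 0.087), which holds TRPM1 at the synapse, and the 2 called higher were RGS11 (0.52 ± 0.13), which speeds the response, and ISL1 (0.27 ± 0.10), a transcription factor. In single eyes the list median ran from -0.43 to 0.55, with eye 2 alone above 0. Of 9 OFF and pan-bipolar genes, 4 were called higher and 1 lower. GRIK1, a kainate receptor subunit of OFF bipolar cells, was at 330.1, 278, 323 and 319 CPM against 121, 106, 163 and 122 CPM (1.30 ± 0.12), without overlap. The transcription factors FEZF2 (1.14 ± 0.13) and IRX6 (1.19 ± 0.14) and CA10 (0.53 ± 0.14) were also higher, and the calcium-binding protein CABP5 was lower (-0.80 ± 0.11). ISL1 lost its call without eye 1, 2 or 4 (0.17, adjusted p = 0.152 without eye 2), RGS11 lost it without eye 3 (0.45, adjusted p = 0.0515), and GRM6 was called lower without eye 2 (-0.43, adjusted p = 0.0102).

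Amacrine cell genes went both ways. Of 20 tested, 7 were called higher in the fovea, 4 lower and 9 were not called, with a median of 0.32 against periphery and -0.24 against nasal retina. Over all genes tested, 31% were called higher than in the periphery and 36% lower, so these counts say little about the class. Without eye 2 the median against periphery was 0.048. The enzymes GAD1 (0.19 ± 0.13) and GAD2 (0.14 ± 0.17), which make GABA, and the glycine transporter SLC6A9 (-0.022 ± 0.12) did not pass the test. PAX6, a factor of amacrine, horizontal and ganglion cells, was at 695, 595, 633 and 669 CPM in the fovea and 265, 206, 304 and 205 CPM in the periphery (1.41 ± 0.15). The peptides diverged: somatostatin, SST, was at 0.0217, 0.0186, 0.104 and 0.0173 CPM in the fovea and 2.87, 0.190, 7.44 and 6.21 CPM in the periphery (-6.50 ± 1.27), and TAC1, the precursor of substance P, at 6.98, 5.44, 3.84 and 4.14 CPM against 14.4, 11.1, 20.5 and 17.8 CPM (-1.67 ± 0.23). The foveal SST levels stand for 1 to 6 counts in a library, so the fitted size is imprecise, and the periphery of eye 2 was well below the other peripheries. VIP, in contrast, was at 1.97, 3.09, 24.5 and 16.6 CPM in the fovea and 1.42, 0.920, 1.88 and 0.558 CPM in the periphery (2.32 ± 0.76, adjusted p = 0.0173), with 21.3 ± 27 CPM in nasal retina. Over the 13 neuropeptide genes tested, 4 were called higher in the fovea and 5 lower. The granins CHGA (1.67 ± 0.20), CHGB (1.42 ± 0.10) and VGF (2.15 ± 0.54) joined VIP among those higher, and TAC3 (-3.40 ± 0.27), CARTPT (-2.21 ± 0.28) and CRH (-1.16 ± 0.37) joined SST and TAC1 among those lower. LHX9, a transcription factor of an amacrine subtype, was lower in the fovea (-2.48 ± 0.21), as was the gap junction gene GJD2 (-0.78 ± 0.074), which couples AII amacrine cells of the rod pathway. The calls of VIP and CRH depended on single eyes: VIP was at 1.79, adjusted p = 0.119 without eye 3 and at 1.74, adjusted p = 0.0548 without eye 4, and CRH was lost without eye 1, 3 or 4 (-0.84, adjusted p = 0.131 without eye 3). GAD1 was called higher without eye 3 (0.37, adjusted p = 0.0317).

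Glutamate receptor genes were mostly higher in the fovea. Of 25 glutamate receptor genes tested, 16 were called higher and 4 lower, with a median of 0.84. Against nasal retina 12 were called higher and 6 lower, with a median of 0.32. The NMDA receptor subunits GRIN2A (3.12 ± 0.26), GRIN2B (2.96 ± 0.41) and GRIN1 (2.65 ± 0.20) and the metabotropic GRM4 (2.86 ± 0.26) led the list. Among AMPA receptor subunits, GRIA2, GRIA3 and GRIA4 were higher by 1.90, 1.72 and 1.53, while GRIA1 was lower, at 49.5, 43.8, 32.6 and 33.1 CPM against 166, 292, 242 and 213 CPM (-2.55 ± 0.18). GRIA1 thus separated from its 3 relatives by more than 4 log2 units. Of 20 GABA and glycine receptor genes, 8 were called higher, 3 lower and 9 were not called, and against nasal retina 7 were called higher and 5 lower, with a median of 0.014. Both GABA-B receptor genes, GABBR1 (2.76 ± 0.18) and GABBR2 (2.12 ± 0.18), and the glycine receptor subunits GLRB (2.31 ± 0.22), GLRA1 (1.95 ± 0.16) and GLRA2 (1.64 ± 0.16) were among those higher, and the rod bipolar subunit GABRR1 (-0.31 ± 0.086) was among those lower.

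Mueller glia genes were lower in the fovea. Of 17 tested, 16 were called lower and none higher, with a median of -1.37. RLBP1, the retinaldehyde-binding protein of Mueller glia and pigment epithelium, was at 174, 203, 143 and 148 CPM in the fovea and 1287, 1319, 1621 and 1418 CPM in the periphery (-3.09 ± 0.19). GLUL, the glutamine synthetase that detoxifies glutamate, was at 665, 663, 621 and 662 CPM against 1264, 1375, 1994 and 1722 CPM (-1.27 ± 0.12), and VIM, the filament protein vimentin, at 159.9, 156, 207 and 239 CPM against 999.6, 1056, 1325 and 1110.3 CPM (-2.57 ± 0.14). Foveal and peripheral values were well apart in all 3. The water channel AQP4 (-1.54 ± 0.18) and the potassium channel KCNJ10 (-0.83 ± 0.085) differed less, and SOX9, a transcription factor of Mueller glia, did not pass the test, at 27, 25.1, 24.3 and 24.1 CPM against 25.9, 32.7, 27.3 and 29 CPM (-0.19 ± 0.094, adjusted p = 0.0931). Against nasal retina the median was -0.82, and SOX9 was called lower there (-0.54, adjusted p = 5.26e-05).

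Of 7 astrocyte genes, 3 were called lower in the fovea and 2 higher. GFAP, the filament of astrocytes, was at 16.4, 15.4, 9.36 and 13.2 CPM against 42.8, 25.1, 32.5 and 23.2 CPM (-1.20 ± 0.23) and reached 73.3 ± 72.7 CPM in nasal retina. ALDH1L1 (-2.57 ± 0.19) and S100B (-1.05 ± 0.15) were lower too, and NES (1.28 ± 0.20) and CD44 (1.24 ± 0.30) were higher in the fovea. The medians over the astrocyte list in single eyes ran from -1.34 to 0.85, and that of eye 2 alone was above 0. Microglia genes were lower: 9 of 13 tested were called lower and none higher, with a median of -1.08. The antigen-presentation chain CD74 was at 21.1, 19.1, 24 and 20.9 CPM against 69.6, 41.7, 166 and 118 CPM (-2.12 ± 0.28) and AIF1 differed by -1.22 ± 0.14, while CX3CR1 (-0.36 ± 0.17) and P2RY12 (-0.47 ± 0.20), receptors of resting microglia, did not pass the test. Complement genes followed, with 15 of 16 tested called lower and none higher and a median of -1.07. C3, the central component, was at 20.7, 15.8, 19.3 and 21.7 CPM against 29.5, 25, 42 and 34.8 CPM (-0.74 ± 0.13), and C1QB, a chain of the first component, differed by -1.18 ± 0.15. CD55, a regulator on the cell surface, was not called (0.15 ± 0.10). Without eye 4, both CX3CR1 (-0.56, adjusted p = 0.0189) and P2RY12 (-0.77, adjusted p = 0.004) were called lower.

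Vessel genes showed no common direction against the periphery. Of 15 endothelial genes, 3 were called higher in the fovea, 5 lower and 7 were not called, while against nasal retina 0 were called higher and 6 lower. The shares over all genes tested were 31% higher and 36% lower against the periphery, and 25.1% and 27.2% against nasal retina. PECAM1 (0.13 ± 0.12) and CDH5 (0.19 ± 0.12), the general endothelial markers, did not pass the test. CLDN5, a tight junction protein (-2.62 ± 0.66), VWF (-1.96 ± 0.14) and the VEGF receptor KDR (-0.93 ± 0.083) were lower, and the receptor FLT1 was higher, at 56.5, 43.7, 46.3 and 52.3 CPM against 20.7, 18.4, 24.9 and 23.8 CPM (1.20 ± 0.11), as were ABCB1 (1.03 ± 0.18) and ERG (0.59 ± 0.19). Of 9 pericyte and smooth muscle genes, 4 were called lower and 1, MYH11, higher (1.35 ± 0.22), and against nasal retina 5 were called lower and 0 higher. ERG lost its call without eye 1 (0.63, adjusted p = 0.0535) or eye 4 (0.55, adjusted p = 0.0835).

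Markers of tissues next to the retina also differed. Of 10 pigment epithelium genes tested, 7 were called lower in the fovea and 1 higher, and their summed level was 197 to 291 CPM in the foveas and 621 to 1182 CPM in the peripheries. RPE65, the isomerase of the pigment epithelium, was at 56.3, 106, 66.7 and 55.1 CPM against 121, 219, 118 and 158 CPM (-1.13 ± 0.27), and TTR, a carrier of retinol and thyroid hormone, at 68.5, 80.2, 47.6 and 44.1 CPM against 315, 651, 657 and 624 CPM (-3.23 ± 0.28). Scaled by library totals alone, the 10 genes summed to 193 to 286 in the foveal retina, 616 to 1181 in the peripheral retina, and 11948 to 26875 in the pigment epithelium and choroid of the periphery. Single members differed widely in this respect. Between those peripheral tissues, the means were 573 against 5645 for TTR and 73.6 against 528 for BEST1. They were much further apart for PMEL (17.5 against 6523) and TYR (2.39 against 616). MITF, a transcription factor of pigment cells, was the gene called higher, at 45.5, 44.6, 34.9 and 40.8 CPM against 9.93, 13.1, 10.9 and 9.24 CPM (1.94 ± 0.18). Lens crystallin genes were lower in 7 of 8 tested, led among those with more than a few counts by CRYAB (-2.62 ± 0.13), which glia also make, and CRYAA (-2.22 ± 0.24). Of 18 immediate early and heat shock genes, 11 were called higher in the fovea and 1, EGR2, lower. ATF3 differed most (1.85 ± 0.33), and FOS did not pass the test (-0.059 ± 0.29). Their count called higher fell to 6 without eye 2 and to 7 without eye 4, and the call of EGR2 was lost without eye 2 (-0.47, adjusted p = 0.0721), 3 or 4. The part of pigment epithelium, lens or handling in the gene groups described here was not tested.

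Genes of retinoic acid metabolism showed some of the most divided patterns. The 3 enzymes of the CYP26 family degrade retinoic acid, and the 3 of the ALDH1A family make it. CYP26A1 was at 13, 19, 18.7 and 17.7 CPM in the fovea and 0.475, 0.394, 1.75 and 2.12 CPM in the periphery (4.29 ± 0.63). CYP26C1 was at 2.67, 2.05, 2.08 and 1.91 CPM against 0.167, 0.205, 0.0280 and 0.0364 CPM (4.42 ± 0.59). Both had low means in the perimacula too, at 1.38 ± 1.87 and 0.0540 ± 0.0630 CPM. CYP26B1 ran the other way, at 0.152, 0.149, 0.174 and 0.104 CPM in the fovea and 7.17, 20.2, 43.4 and 50.02 CPM in the periphery (-7.56 ± 0.65), with 1.41 ± 1.35 CPM in the perimacula and 4.98 ± 2.01 CPM in nasal retina. The 2 ends of the 19 genes of this pathway thus lay in 1 family, with CYP26B1 the most strongly lower in the fovea. CYP26C1 had the highest value, but CYP26A1 lay within its standard error. The foveal levels of CYP26B1 stand for 6 to 10 counts in a library and the peripheral levels of CYP26C1 for 2 to 14. The fitted sizes of both are therefore imprecise.

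**Figure D3:**
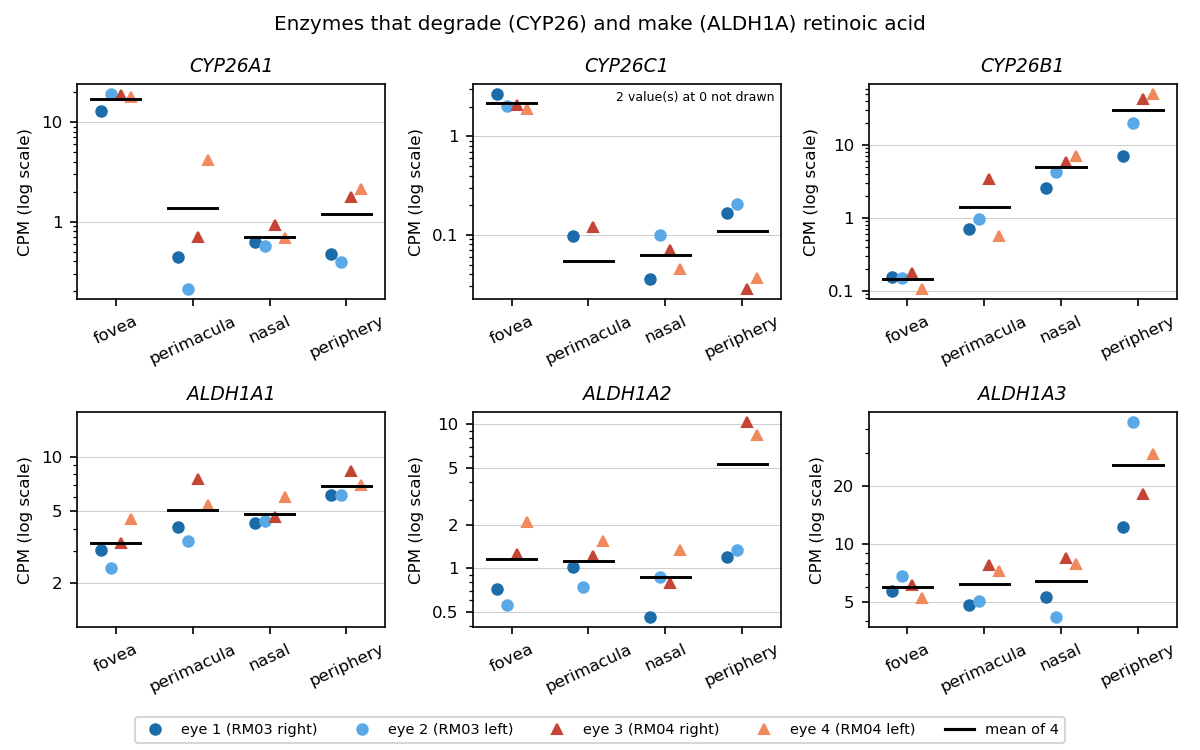
Level of the 3 CYP26 and 3 ALDH1A genes in CPM (log axis) in each library, by location, with points for the 4 eyes (circles RM03, triangles RM04) and a bar at the mean; 2 values of CYP26C1 in the perimacula are 0 and not drawn. CYP26A1 and CYP26C1 are high in the 4 foveas alone, the mean of CYP26B1 climbs from left to right, and the ALDH1A genes are highest in the periphery.

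The enzymes that make retinoic acid were lower in the fovea. ALDH1A3 was at 5.72, 6.80, 6.13 and 5.24 CPM against 12.2, 43.3, 18.3 and 29.4 CPM (-2.12 ± 0.34), ALDH1A1 at 3.06, 2.42, 3.33 and 4.51 CPM against 6.17, 6.12, 8.31 and 6.98 CPM (-1.06 ± 0.17), and ALDH1A2 at 0.716, 0.559, 1.25 and 2.10 CPM against 1.21, 1.34, 10.4 and 8.45 CPM (-1.89 ± 0.39), with overlap between the groups for ALDH1A2 only. The receptors RARB (-1.57 ± 0.097) and RARG (-1.62 ± 0.13) were lower, RARA was higher (0.70 ± 0.14), and the binding proteins CRABP1 (-2.31 ± 0.36) and CRABP2 (1.47 ± 0.30) went in opposite directions. In all, 6 of 19 members were called higher and 11 lower, with a median of -1.06. Against nasal retina, ALDH1A3 (-0.074, adjusted p = 0.865) and ALDH1A2 (0.28, adjusted p = 0.611) did not pass the test, whereas CYP26A1 (4.73), CYP26C1 (5.09) and CYP26B1 (-5.12) kept their directions.

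Transcription factors that pattern the axes of the eye were also regional. Of 17 tested, 12 were called higher in the fovea and 3 lower, with a median of 1.19. All 6 Iroquois genes tested were higher: IRX2 was at 37.8, 45.9, 28.3 and 32.9 CPM in the fovea and 1.54, 0.541, 0.995 and 0.728 CPM in the periphery (5.24 ± 0.33), IRX1 at 14.1, 21.7, 15 and 16.1 CPM against 0.693, 0.219, 0.659 and 0.509 CPM (5.0 ± 0.33), and IRX4 (3.77 ± 0.60), IRX3 (1.86 ± 0.32), IRX6 and IRX5 (1.06 ± 0.19) differed by less. ZFHX4 (2.97 ± 0.21) and ZFHX3 (2.59 ± 0.14), homeobox factors of differentiating neurons, were higher as well. FOXI3, a forkhead factor, was near 0 in the fovea, at 0.0217, 0.0932, 0.0174 and 0.0173 CPM against 3.93, 5.74, 6.66 and 4.04 CPM (-7.04 ± 0.54), where the foveal values stand for 1 to 5 counts in a library. VAX2, a ventral factor, was at 9.61, 13.5, 13 and 12.1 CPM against 32.7, 17.2, 52.7 and 75.7 CPM (-1.78 ± 0.35), and NR2F1 was the third gene called lower (-1.43 ± 0.21).

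Factors that mark one side of the retina gave a check of position. FOXD1, which marks temporal retina, was at 9.97, 4.75, 4.05 and 5.04 CPM in the fovea and 1.39, 0.760, 0.841 and 0.606 CPM in the periphery (2.72 ± 0.42), and at only 0.0728 ± 0.0481 CPM in the nasal punches. TBX5, a dorsal factor, was at 2.47, 3.71, 6.51 and 11.1 CPM in the fovea and at 0, 3.77, 0.0280 and 0.0485 CPM in the periphery, where eye 2 stood far above the other 3 (2.06 ± 1.57, adjusted p = 0.261). VAX2 was lowest in that same library among the peripheries. The dorsal or ventral place of each peripheral punch is not given in the labels. Without that eye, TBX5 was called higher in the fovea (8.14, adjusted p = 2.17e-05).

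Ephrins and Eph receptors, which guide axons by position, were called in 16 of 19 tested, beside 67% of all genes tested. Of the 16, 11 were higher and 5 lower in the fovea, and the list median was 0.95. Against nasal retina 9 were called higher and 6 lower, with a median of 0.40. EPHA6 was at 18.1, 16.6, 15.5 and 16.8 CPM against 2.18, 1.27, 1.54 and 1.24 CPM (3.43 ± 0.27), and EPHA4 (2.27 ± 0.21), EPHA5 (2.26 ± 0.24) and EPHA10 (2.02 ± 0.29) were also higher. EPHA2 (-1.82 ± 0.23), EPHB3 (-1.51 ± 0.20), EPHB4 (-1.24 ± 0.16), EPHA3 (-1.14 ± 0.088) and the ligand EFNB1 (-0.72 ± 0.24) were lower. A-class receptors thus fell on both sides. EFNB1 lost its call without eye 3 (-0.74, adjusted p = 0.0594) or eye 4 (-0.64, adjusted p = 0.0613).

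Wnt pathway genes were mostly lower in the fovea. Of 21 tested, 14 were called lower and 3 higher, with a median of -1.02. The secreted inhibitor WIF1, made by Mueller glia, was at 151, 154, 220.2 and 228 CPM in the fovea and 799.7, 966, 1307 and 1446 CPM in the periphery (-2.57 ± 0.14). DKK1, another inhibitor, was at 0.239, 0.0745, 0.226 and 0.416 CPM against 10.1, 4.56, 1.11 and 0.424 CPM (-4.30 ± 1.51, adjusted p = 0.024), with wide spread among the peripheries, and the ligand WNT2B was lower (-3.36 ± 0.47). SFRP1 (1.64 ± 0.14), the receptor FZD1 (1.18 ± 0.26) and LEF1 (0.59 ± 0.21) were the 3 called higher. AXIN2, a target gene of the pathway, was lower (-1.10 ± 0.17). DKK1 lost its call without eye 1 (-3.06, adjusted p = 0.121) or eye 2 (-3.18, adjusted p = 0.142), and LEF1 without eye 3 (0.63, adjusted p = 0.0538) or eye 4 (0.39, adjusted p = 0.133).

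BMP and FGF genes went both ways, with 9 of 22 called higher in the fovea and 11 lower. FGF9, a growth factor of neurons, was at 70.8, 69.4, 59.1 and 58.6 CPM against 9.84, 5.95, 8.27 and 6.22 CPM (3.10 ± 0.22), whereas FGF8 was at 0.0867, 0.186, 0.0868 and 0.104 CPM against 1.14, 1.39, 1.91 and 2.50 CPM (-3.88 ± 0.42). The receptor FGFR1 was lower (-1.84 ± 0.22). Among BMP antagonists, CHRD was higher in the fovea (2.32 ± 0.26) and CHRDL1 was lower (-1.93 ± 0.12), and the ligands BMP6 (2.30 ± 0.34) and BMP4 (-1.47 ± 0.26) also went in opposite directions.

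Genes that recycle the visual chromophore were mostly lower in the fovea, 10 of 13 called lower and 3 higher. RDH10 was at 25, 25.5, 21.3 and 21.1 CPM against 115, 133, 181 and 127 CPM (-2.58 ± 0.17), and RDH8 (-2.06 ± 0.14) and RDH12 (-1.63 ± 0.11), dehydrogenases of photoreceptors, were lower with it. DEGS1, proposed as an isomerase of the cone cycle, was higher, at 58.5, 64.3, 57.7 and 54.5 CPM against 34.3, 33, 34.5 and 45.7 CPM (0.68 ± 0.11), together with RBP4 (1.27 ± 0.18) and RDH13 (0.98 ± 0.23). Among genes of macular pigment and lipid handling, the carotenoid-cleaving enzyme BCO2 was at 33.6, 37, 21 and 19.4 CPM in the fovea against 197, 214, 114 and 124 CPM (-2.55 ± 0.12). STARD3, the lutein-binding protein, differed little (-0.22 ± 0.074) and the zeaxanthin-binding GSTP1 was lower with overlap of the groups (-0.83 ± 0.18). The fatty acid desaturases FADS2 (1.0 ± 0.17) and FADS1 (0.56 ± 0.14) were among the 3 called higher of 15. The call of STARD3 was lost without eye 1 (-0.16, adjusted p = 0.212), eye 3 or eye 4.

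Glycolytic genes were higher in the fovea. Of 23 tested, 16 were called higher and 2 lower, with a median of 0.47 and of 0.70 against nasal retina, within shared flow cells. GPI, the second enzyme of the pathway, was at 1082, 1116, 1287 and 1319 CPM against 522, 416, 642 and 546 CPM (1.19 ± 0.082), and ALDOC, a brain aldolase, at 2331, 2649, 2641 and 2832 CPM against 1248, 1045, 1299 and 1131 CPM (1.15 ± 0.094). The neuronal glucose transporter SLC2A3 (2.24 ± 0.18) and the lactate transporters SLC16A7 (3.38 ± 0.52) and SLC16A3 (2.18 ± 0.23) differed more than the enzymes. HK2, the hexokinase of photoreceptors, did not pass the test (0.24 ± 0.14, adjusted p = 0.149). The 2 genes called lower were ENO1 (-1.66 ± 0.19) and SLC16A1 (-0.25 ± 0.092). For SLC2A3, and for several enzymes such as GAPDH, TPI1 and PKM, more than 1 entry carries the symbol, so that their values are uncertain. HK2 was called higher without eye 2 (0.37, adjusted p = 0.0441), and SLC16A1 lost its call without eye 1 (-0.18, adjusted p = 0.212), 2 or 4 and with the eye as a block (adjusted p = 0.0505).

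Of 15 sodium pump and carbonic anhydrase genes, 7 were called higher in the fovea and 7 lower. The sodium pump subunit ATP1B1 was at 796, 736, 759.7 and 759 CPM in the fovea and 210.4, 176, 193 and 179 CPM in the periphery (2.01 ± 0.15). ATP1A4, an isoform best known from sperm, was at 8.56, 8.18, 12.6 and 11.3 CPM in the fovea and 326, 516, 546 and 497 CPM in the periphery (-5.55 ± 0.28), a 46.7-fold difference, and was intermediate at the perimacula (35.3 ± 15.2 CPM) and in nasal retina (131 ± 15 CPM). CA12, a carbonic anhydrase of the cell surface, was at 1.5, 3.26, 2.95 and 2.32 CPM against 28.3, 45.1, 108 and 91.3 CPM (-4.64 ± 0.46), and CA14, that of Mueller glia, was lower by less (-1.33 ± 0.12).

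Genes of the integrated stress response did not move together, with 5 of 10 tested called higher in the fovea and 4 lower. CHAC1, an enzyme that degrades glutathione and a target of ATF4, was at 32.9, 99.7, 89.6 and 74.2 CPM in the fovea and 2.81, 0.979, 2.13 and 6.18 CPM in the periphery (4.66 ± 0.54), and ATF3 was higher too. DDIT3, another target, was lower (-1.53 ± 0.10), as were the serine synthesis enzymes PSAT1 (-2.12 ± 0.12) and PHGDH (-1.70 ± 0.13), which glia use most, while ASNS (0.66 ± 0.10) and SHMT2 (0.81 ± 0.081) were higher.

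Genes for ribosomal proteins and for the respiratory chain differed more from the periphery than from nasal retina. All 75 ribosomal protein genes tested were called lower in the fovea, with a median of -1.42, and their summed level was 7292 to 8704 CPM in the foveas and 20981 to 24993 CPM in the peripheries. In perimacula and nasal retina the sum was 8228 to 9872 and 9862 to 10763 CPM, and the median against nasal retina was -0.33, with 46 called lower and 0 higher. Of 63 nuclear genes for respiratory chain subunits, 38 were called lower than in the periphery and 8 higher, with a median of -0.49, but against nasal retina 20 were called higher and 3 lower, with a median of 0.12. ATP5MG (-2.89 ± 0.11 against periphery, -0.19 against nasal retina) and UQCRH (-2.21 ± 0.089 and -0.52) were the most extreme, although the second value of UQCRH was 0.00635 when the entries with its symbol were summed. The catalytic subunits SDHA (0.58 ± 0.078 and 0.46) and NDUFV1 (0.54 ± 0.13 and 0.48) were higher in the fovea in both comparisons. Without eye 2, NDUFV1 was at 0.35, adjusted p = 0.00686. For these 2 groups location and flow cell cannot be told apart, and most ribosomal protein genes share their symbol with other entries.

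**Figure D4:**
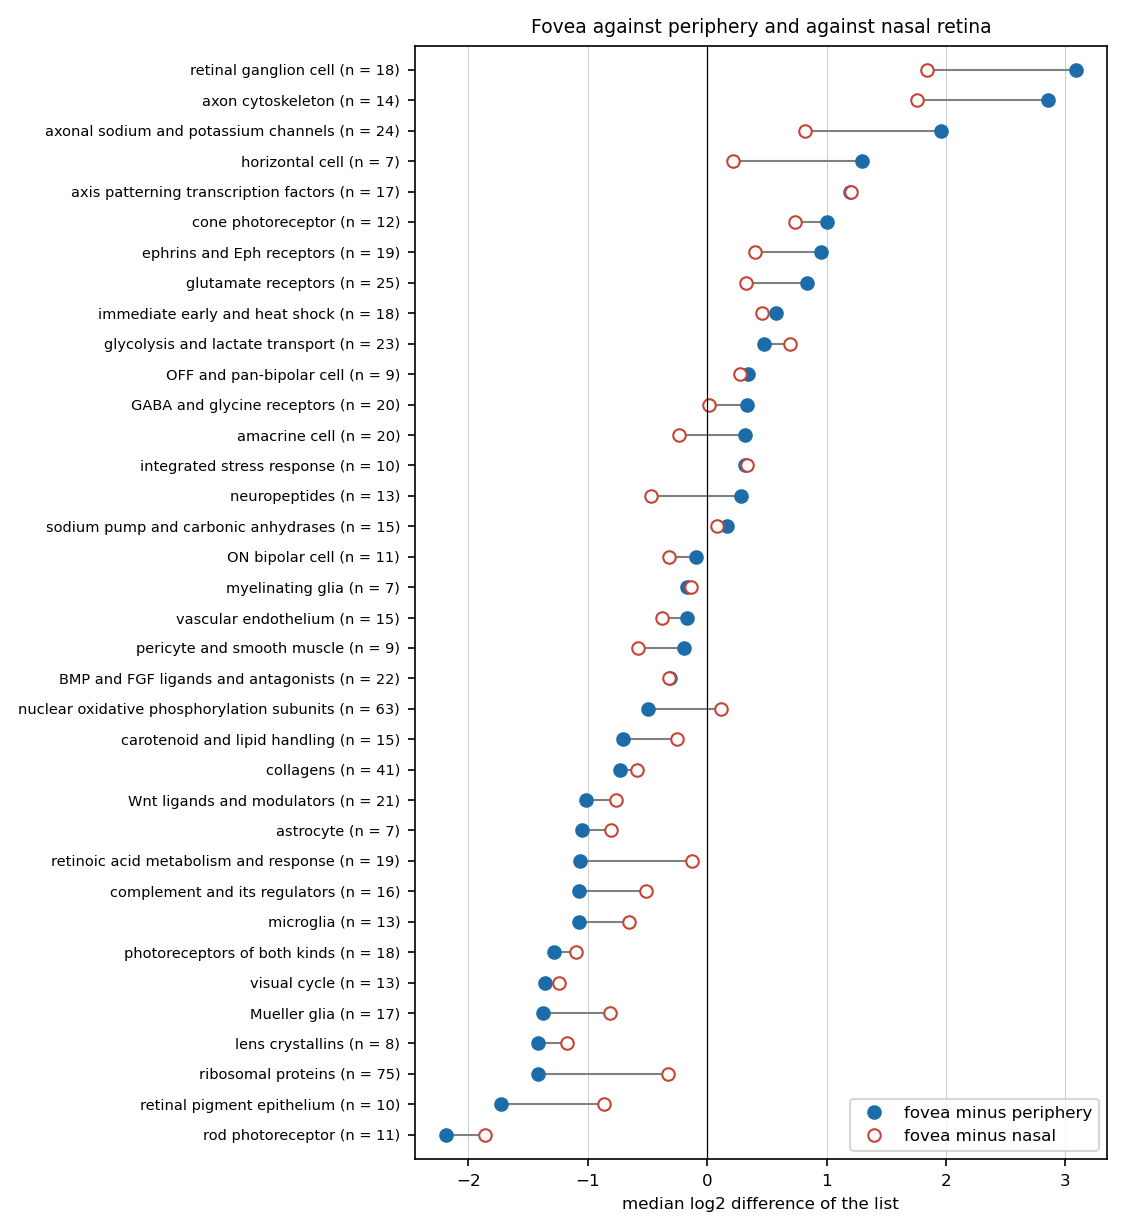
Median log2 difference of fovea minus periphery (filled) and fovea minus nasal retina (open) for each gene list, joined by a line; the number of tested members stands beside each name. Both differences use the same 4 fovea libraries. Rod and photoreceptor lists differ by similar amounts from both locations, the horizontal cell, ribosomal protein and retinoic acid lists lie closer to 0 against nasal retina, and the amacrine cell, neuropeptide and respiratory chain lists lie on the other side of 0.

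The genes with the largest differences were ranked over all genes, whether or not a list held them. Among the 6847 called genes that were well expressed and moved the same way in all 4 eyes, the 15 most strongly higher in the fovea held RBPMS, CHAC1, KCNC2, POU4F2, EBF3 and NEFM, described above, and 9 others. ELAVL2, a neuronal RNA-binding protein, was at 221, 212, 206 and 195 CPM against 13.5, 6.53, 11 and 7.91 CPM (4.43 ± 0.32), and SYN3, a synaptic vesicle protein, at 39.5, 45.6, 42.4 and 44.3 CPM against 2.44, 1.48, 2.10 and 1.70 CPM (4.48 ± 0.25). SYT2 (4.28 ± 0.30), a calcium sensor of fast synapses, and ISLR2 (4.30 ± 0.24), a membrane protein of growing axons, were among them, as were GALNT14 (4.32 ± 0.38) and B4GALNT1 (4.20 ± 0.35), which add sugars to proteins and gangliosides. In CPLX2, a regulator of vesicle release, the foveas were at 36.4, 88.4, 112 and 127 CPM and the peripheries at 2.59, 0.935, 6.99 and 8.01 CPM (4.48 ± 0.43), and in SCRT1, a neuronal repressor, at 10.5, 71.1, 78.3 and 78.6 and 0.988, 0.380, 2.0 and 9.31 CPM (4.47 ± 0.95). The fovea of eye 1 was lowest in both, and also in PANX2 (4.33 ± 0.51), a channel protein of neurons, and in CHAC1.

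In that ranking the gene with the largest difference in the other direction was COL2A1, the collagen of cartilage and vitreous, at 1.15, 0.745, 1.79 and 1.30 CPM in the fovea and 75.2, 194, 172 and 169 CPM in the periphery (-6.96 ± 0.33), a 125-fold difference. It was also low in the perimacula (1.99 ± 0.769 CPM) and in nasal retina (3.08 ± 0.643 CPM). TF, the iron carrier transferrin, was at 234, 263, 194 and 241 CPM in the foveas and 10097, 12236, 14759 and 12684 CPM in the peripheries (-5.73 ± 0.26). Its means were 2352 ± 822 CPM in the perimacula and 5508 ± 198 CPM in nasal retina. GJA1, the gap junction protein of astrocytes (-4.38 ± 0.33), GPX3, a secreted peroxidase (-3.48 ± 0.32), GPNMB (-3.48 ± 0.29) and DAPL1 (-3.56 ± 0.22), both found in pigment epithelium, RARRES2, a chemoattractant induced by retinoids (-3.80 ± 0.35), METTL7B (-3.73 ± 0.20) and the cell cycle inhibitor CDKN2C (-3.31 ± 0.19) were among the 15, together with SPP1, ATP1A4, CA12 and TTR. For RPL24, 4 entries carry the symbol; the entry in this ranking differed by -3.60 and the best expressed by -1.0, so its value is uncertain. COL9A1 (-3.22 ± 0.29) completed the list.

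Of 41 collagen genes tested, COL2A1 and COL9A1 included, 24 were called lower in the fovea and 7 higher, with a median of -0.73. The vitreous collagens COL9A2 (-2.93 ± 0.27) and COL9A3 (-2.02 ± 0.39), COL23A1 (-4.18 ± 0.39) and the basement membrane chains COL4A1 (-0.72 ± 0.12) and COL4A2 (-1.34 ± 0.19) were lower. COL17A1, a transmembrane collagen of epithelial adhesion, was an exception, at 3.71, 4.19, 3.13 and 2.95 CPM in the fovea and 0.192, 0.0584, 0.350 and 0.170 CPM in the periphery (4.25 ± 0.46), and was low in nasal retina as well (0.231 ± 0.0814 CPM).

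In the main fit, few genes were called for a difference between fovea and periphery that depended on the animal. With 2 animals, a gene that was not called may still differ between them. The count also varied with the method, to 203 genes in DESeq2 and 123 in a fit of all 16 retina libraries. In the test of the interaction of animal and location, 1240 genes had an unadjusted p under 0.05 and 53 (0.345%) were called. Of these 53, the fovea minus periphery difference, taken with its sign, was higher in RM04 for 29 and in RM03 for 24. The sign does not tell in which animal the change was stronger. With any eye left out, the count was 0 to 8. ECEL1, an endopeptidase of neurons of which 2 entries carry the symbol, showed the largest interaction of the called genes whose mean reached 3 log2 CPM: its fovea was at 2.36 and 4.77 CPM in RM03 and at 188 and 191 CPM in RM04, and its periphery at 35.5, 56.8, 16.5 and 27.1 CPM. Location thus changed ECEL1 in opposite directions in the 2 animals (interaction 6.84 ± 0.57, adjusted p = 0.00207). KLF7, a transcription factor of axon growth, was lower in the periphery mainly in RM04 (21, 21.6, 19.5 and 19.8 CPM against 17.7, 15.5, 2.35 and 1.76 CPM, interaction 2.93 ± 0.40). SIK1, a kinase induced by cyclic AMP (2.45 ± 0.24), and LOC714514 (2.66 ± 0.43) were the next by size. The calls of KLF7, SIK1 and LOC714514 were lost without any 1 eye, and that of ECEL1 without eye 2, 3 or 4, with interactions of the same direction (6.50, adjusted p = 0.177 for ECEL1 without eye 3).

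PMP2, a fatty acid binding protein of myelin that is the only member of the myelinating glia list called higher in the fovea, belonged to these genes too. It was at 53.6, 38.8, 3.32 and 3.78 CPM in the foveas and at 0.359, 0.570, 0.252 and 0.303 CPM in the peripheries (5.45 ± 0.65), and its interaction was -2.94 ± 0.40 (adjusted p = 0.0187). The foveas of both animals were above every other location, at 0.341 ± 0.0497 CPM in the perimacula and 0.380 ± 0.146 CPM in nasal retina, but those of RM03 were more than 10 times those of RM04. No other member of that list was called higher: MAG, with 11 counts in the 4 foveas together, was among those called lower, and MBP (-0.31 ± 0.19), MOG and CNP were among those not called. The interaction of PMP2 was not called when an eye was left out (-3.51, adjusted p = 0.0802 without eye 2), whereas its difference between locations was.

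**Figure D5:**
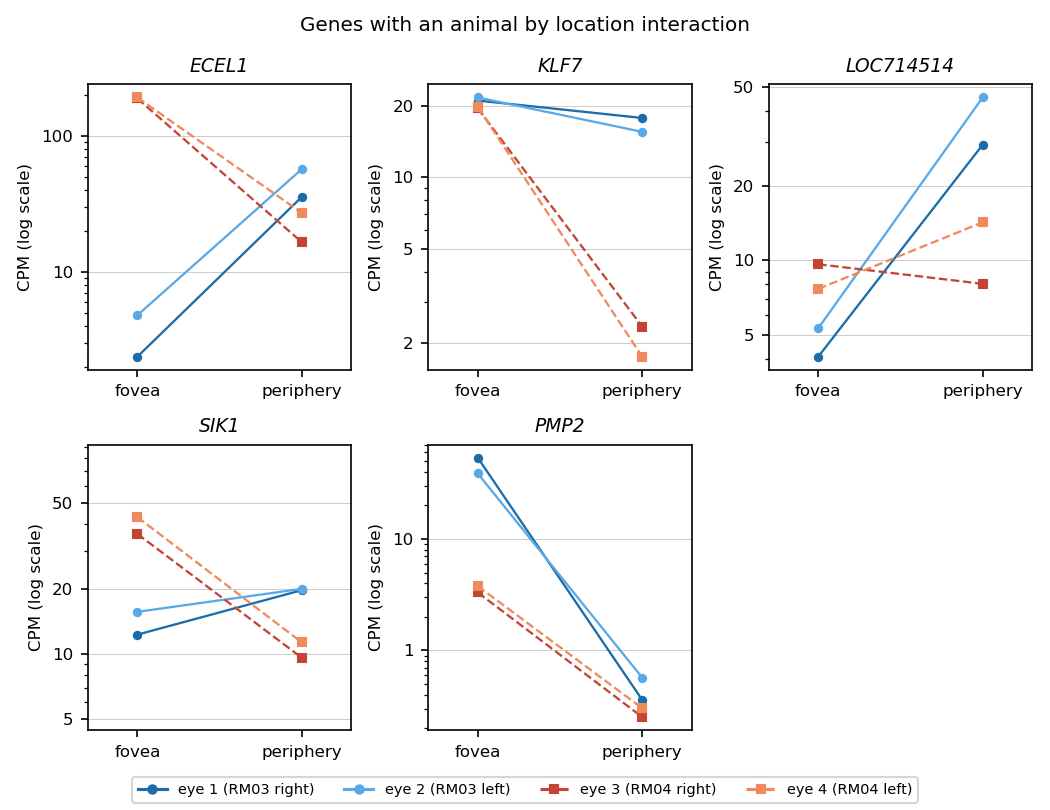
Level in CPM (log axis) in fovea and periphery for 5 genes with an animal by location interaction, with a line for each eye (solid RM03, dashed RM04). The 2 eyes of an animal run together in each panel but that of LOC714514, where those of RM04 part. In ECEL1 and SIK1 the lines of RM03 rise towards the periphery and those of RM04 fall.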

How the data were processed

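Total RNA of neural retina punches was sequenced as poly-A libraries of 100 bp paired-end reads in the 4 locations fovea, perimacula, nasal and periphery, 4 eyes of 2 rhesus macaques each. Per the labels and the study's methods, the authors quantified reads with Salmon 0.13 against Mmul_8.0.1 and deposited, for each sequencing lane, length-scaled expected counts per gene from tximport, under a column named TPM, with human gene names matched through HCOP. Here each library's lanes were added up and rounded to whole counts: 5 lanes of 2 flow cells for fovea, perimacula and nasal libraries, 2 lanes of 1 other flow cell for the periphery. Of 19432 entries, 10 that repeat an identifier were dropped, and 352 of 1064 entries with a LOC symbol were given a symbol by identifier. In the lists, a symbol carried by several entries was read from the only entry with the same macaque symbol, or else from the best expressed entry. The ranking over all genes, the interaction and the search for genes set apart at 1 end took each entry by itself. Values of such symbols are uncertain.

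Differences were tested with edgeR 4.0.16 (R 4.3.3), quasi-likelihood, TMM scaling, genes kept by filterByExpr at a minimum count of 10, and animal as covariate, as in the study. The 12 libraries of fovea, perimacula and periphery entered 1 fit, and nasal retina a second of all 16; the animal by location interaction was fitted on the 12. A gene was called at a Benjamini-Hochberg adjusted p under 0.05 over all genes tested. Lists were described by counts and medians only. The text names 15 genes each way with the largest differences among called genes whose mean reached 3 log2 CPM, with the same direction in 4 of 4 eyes, the lead, largest and best expressed members of each list, and 5 genes with the largest called interaction above the same floor. Genes, lists and rules were chosen with earlier results of these data known. The scripts were tested on simulated data.

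By the labels, each eye gave 1 punch at every location, so that replicate numbers pair the samples. Deviations of fovea and periphery from their group means correlated across genes at 0.454, 0.233, 0.436 and 0.519 in eyes 1 to 4, but fellow eyes correlated as strongly. The 16 libraries held 42448891 to 78574034 counts, so that counting error is small beside the spread between eyes except for the low genes named. P-values describe 4 eyes of 2 animals. Alternatives changed scaling, filter, covariate, libraries, lanes, depth, tool and eyes. The libraries of pigment epithelium and choroid were used only for the level of 1 marker list. Sequences and promoter motifs were not analysed here, and some genes that these rules pick are not reported here.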

Additional observations from a re-analysis of the deposited data

Results flagged for a closer look

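Among the 4 values of a gene in the fovea or the periphery, a single eye stood apart by Dixon's test at the 95% level in 27 of 518 groups (5.21%), over the 259 genes named in the text, and chance alone gives about 1 group in 20.

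In the fovea, a value stood above the other 3 for eye 1 in EPHB4 (2.10 CPM) and FOXD1 (9.97 CPM), for eye 2 in COL9A2 (35.8 CPM) and FOXI3 (0.0932 CPM), for eye 3 in RARB (13.6 CPM) and SST (0.104 CPM). In the fovea, a value stood below the other 3 for eye 1 in GPR37L1 (0.0867 CPM), IRX3 (6.89 CPM), NDUFV1 (116 CPM), NR2E3 (44.6 CPM), NR2F1 (7.78 CPM), PANX2 (20.6 CPM) and SCRT1 (10.5 CPM), for eye 3 in GLUL (621 CPM). In the periphery, a value stood above the other 3 for eye 1 in EBF2 (2.25 CPM), SDHA (265 CPM) and TAC3 (5.97 CPM), for eye 2 in TBX5 (3.77 CPM), for eye 3 in GJA10 (5.77 CPM) and LOC705507 (0.0140 CPM), for eye 4 in DEGS1 (45.7 CPM). In the periphery, a value stood below the other 3 for eye 1 in TTR (315 CPM), for eye 2 in GRM4 (3.20 CPM), GRM6 (57.8 CPM) and MYH11 (2.76 CPM), for eye 4 in ATP5MG (47.9 CPM) and EPHA4 (19 CPM).

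The change from fovea to periphery differed between the animals, by the test of the interaction itself in edgeR, for 6 of the named genes: ECEL1 at 6.84 (adjusted p = 0.00207), KLF7 at 2.93 (adjusted p = 0.0198), LOC714514 at 2.66 (adjusted p = 0.042), PMP2 at -2.94 (adjusted p = 0.0187), SERPINA3 at -3.38 (adjusted p = 0.0433) and SIK1 at 2.45 (adjusted p = 0.00388). These are differences of log2 fold changes, RM04 minus RM03. None of these calls held with an eye left out, except that of ECEL1 without eye 1.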

How the results depend on the processing

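The count of genes called between fovea and periphery was 9043 to 10789 in 13 alternatives of scaling, filter, covariate, libraries, lanes, depth and tool, 9076 to 9731 with an eye left out and 7839 to 7905 in a single animal. With the eye as a replicate block in place of the animal it was 10018, and the block changed only the calls of GJA10, PROX1 and SLC16A1 among named genes. Total counts without scaling moved the median of all genes to -0.115 and the share of calls higher in the fovea from 46.3% to 42.6%. Of 236 named genes called against the periphery, 202 kept direction and call in every alternative run, 34 lost the call in at least 1, and 1 of those, GJA10, turned, at 0.064 in RM03 alone.

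The perimacula comparison depended more on the samples. It gave 2742 genes (1651 higher and 1091 lower) in RM03 alone, 1044 (475 and 569) in RM04 alone, 1528 lower with no covariate, and 3225 to 4800 (1632 to 2583 higher, 1593 to 2332 lower) with an eye left out. Nasal retina gave 5097 genes in RM03 alone, of which 2102 were lower, and 2648 lower in RM04 alone. The animal by location interaction was called for 203 genes in DESeq2, 123 in a fit of all 16 libraries, 26 from the lanes of flow cell HLKJ7BBXX, a choice that restricts fovea, perimacula and nasal retina and leaves the periphery on its own flow cell, and 0 to 8 with an eye left out, where 1 animal has a lone eye that is assumed to vary like the others. The cause was not tested.

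List counts moved in few cases: ON bipolar genes called lower were 1 in RM04 alone, endothelial genes called lower 3 in RM03 alone, and myelinating glia genes called lower 1 with at least 10 counts in every library and 1 from the lanes of HLKJ7BBXX. Immediate early and heat shock genes called higher were 5 in RM03 alone and 6 to 10 with an eye left out. List medians moved by more than their spread between eyes in 27 cases, and the ON bipolar median, within that spread at -0.0967, was 0.354 in RM03 alone and 0.189 without eye 4. The median of the endothelial list turned to 0.0638 in RM04 alone and that of the BMP and FGF list to 0.0845 with at least 10 counts in every library.

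Of the other named values that turned in direction, UQCRH against nasal retina had been called and was at 0.00635 with entries summed by symbol. ECEL1 and FOS, not called over both animals, were called in the turned direction in RM04 alone, at 3.17 (adjusted p = 0.000921) and 0.584 (adjusted p = 0.0231) in edgeR's test. The rest were called neither over both animals nor where they turned. In RM03 alone they were DPYSL3 at -0.0221, SIK1 at -0.481 and SLC6A9 at 0.185 against the periphery, and ALDH1A2 at -0.0122 and ALDH1A3 at 0.462 against nasal retina. In RM04 alone they were GAD2 at -0.23, ISL2 at -0.0372, MBP at 0.0855 and MOG at 0.057. SLC6A9 was at 0.0091 in DESeq2 and 0.00905 with RLE scaling, and DPYSL3 at -0.00243 with total counts. At equal depth ISL2 was at -0.0102 and MOG at 0.0845. The choice of lanes of HLKMNBBXX, too, restricts fovea, perimacula and nasal retina and leaves the periphery on its own flow cell. With it ISL2 was at -0.0231, MOG at 0.0666 and ALDH1A3 against nasal retina at 0.000525. ECEL1 was at 1.51 with no covariate and FOS at 0.0059 in a fit of fovea and periphery alone. With an eye left out, ALDH1A3 against nasal retina ran from -0.288 to 0.0946, ARR3 ran from -0.0727 to 0.0147, DPYSL3 ran from -0.0101 to 0.111, ECEL1 ran from -3.002 to 0.257, FOS ran from -0.265 to 0.234, ISL2 ran from -0.0947 to 0.375, MOG ran from -0.189 to 0.157 and SLC6A9 ran from -0.0917 to 0.139.

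The periphery was sequenced on its own flow cell, so location and flow cell cannot be told apart in it, and 2 animals give little estimate of the spread between monkeys. Depth limits the sizes of genes near 0 at 1 location, such as FOXI3, SST and MAG.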

Other observations

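A small number of genes had a mean at 1 end of the retina that lay far from the means at the other locations. A rule chosen after the values had been seen looked for tested genes whose mean at fovea or periphery was at least 8 times above, or below, the mean at each of the other 3 locations, with at least 1 CPM on the high side. It found 7 genes high in the fovea alone, 16 high in the periphery alone, 10 low in the fovea alone and 6 low in the periphery alone. Since the same values chose these genes, what follows is a description with no test. The word alone refers to this rule and does not exclude a gradient. TF, for example, rose from 233 CPM in the fovea through 2352 and 5508 CPM in perimacula and nasal retina to 12444 CPM in the periphery.

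Of the 7 genes high in the fovea alone, CYP26A1, CYP26C1 and PMP2 have been described. SEMA3C, a secreted semaphorin that guides axons, was steady among the foveas at 14.4, 12.1, 11.7 and 13.1 CPM, while the means elsewhere ran from 0.573 ± 0.107 CPM in the periphery to 1.48 ± 0.666 CPM in the perimacula (SD, n = 4). CPZ, a carboxypeptidase that binds Wnt proteins, was at 2.02, 2.38, 1.56 and 1.01 CPM in the foveas and 0.139 ± 0.0759 CPM in the peripheries. C4H6orf141 was at 0.932, 0.913, 1.96 and 1.99 CPM and the gene LOC705507 at 16.8, 15.9, 4.53 and 3.31 CPM, with the 2 foveas of RM04 above those of RM03 in the first and below them in the second.

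Of the 10 genes low in the fovea alone, TF, CYP26B1, FOXI3, SST and DKK1 stand above. GPR37L1, a receptor of astrocytes and Mueller glia, was at 0.0867, 0.149, 0.156 and 0.156 CPM in the foveas. Its means were 1.91 ± 0.949 CPM in the perimacula, 6.93 ± 0.517 CPM in nasal retina and 11.9 ± 1.20 CPM in the periphery. PXDN, a peroxidase that crosslinks basement membrane collagen, went from 0.270 ± 0.0568 CPM in the fovea to 8.69 ± 2.33 CPM in the periphery. COL6A5 and CLEC4F belonged to these genes too. In RM04, COL6A5 was at 0.136 and 0.0188 CPM in the perimacula and 0.123 and 0.271 CPM in nasal retina. The foveas of RM04 were at 0 and 0.0867 CPM, so the place of COL6A5 here rests mainly on RM03. For DKK1 the means elsewhere rest on few libraries: in RM03 its levels in perimacula and nasal retina were as low as in the fovea, its highest perimacula value was 8.33 CPM in eye 3 and its highest nasal value 29.6 CPM in eye 4.

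The genes high in the periphery alone included COL2A1 and several that are secreted or sit at the cell surface. LPAR3, a receptor for lysophosphatidic acid, was at 0.455, 0.391, 0.208 and 0.277 CPM in the foveas and 3.73, 20.5, 14 and 15 CPM in the peripheries, and TNFRSF11B, the decoy receptor osteoprotegerin, at 0.0867, 0.0745, 0.330 and 0.277 and 2.85, 4.70, 9.99 and 9.12 CPM. The steroid dehydrogenase HSD17B2 was at 13.9, 26.1, 8.21 and 4.62 CPM in the peripheries and no higher than 0.112 CPM in a fovea. TRDN, triadin, a protein of calcium stores in muscle, was at 25.2, 61.2, 69.7 and 60.7 CPM against 0.477, 0.559, 0.642 and 0.381 CPM. The Wnt inhibitor SFRP4 was at 1.80, 2.13, 4.75 and 4.26 against 0.195, 0.0373, 0.0347 and 0.191 CPM and the protease inhibitor SERPINA3 at 0.731, 1.75, 13 and 14.6 against 0.585, 0.466, 0.642 and 0.451 CPM, the latter with the 2 peripheries of RM04 far above those of RM03. For EIF2S3B, HNRNPA1, DCAF10, MPEG1 and RPL24 more than 1 entry carries the symbol, so that they are uncertain. Location and flow cell cannot be told apart for genes that stand out in the periphery alone.

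Low in the periphery alone were TBR1 and VIP, given above, the cytochrome P450 CYP2S1, at 5.81, 3.02, 4.74 and 3.99 CPM in the foveas and 0.244, 0, 0.182 and 0.109 CPM in the peripheries, PABPC1L2A, listed at 0 in the 4 peripheries, and entries of MAPK6 and LANCL1, which are 1 of several with the symbol. VIP was at 0.92 to 3.09 CPM at all 4 locations in RM03, so that its low periphery rests on the libraries of RM04.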
